A study of Mus musculus with 6 samples.

Results

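Grhl3 binding in embryonic skin was compared with Grhl3 binding in imiquimod-treated adult epidermis on the 19 autosomes of the mouse. An embryonic region was a chromatin immunoprecipitation sequencing (ChIP-seq) peak of E16.5 replicate 1 that a peak of E16.5 replicate 2 overlapped by at least 1 bp, and a shared site was such a region overlapped by an imiquimod peak. By this rule 3556 embryonic regions were found, of which 1265 were shared sites and 2291 carried no imiquimod peak. From the adult side, 1322 of 7897 imiquimod peaks lay on an embryonic region.

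The embryonic libraries were 2 replicates of whole mouse skin at E16.5, late in embryonic development, with no treatment named in the labels. The imiquimod library was 1 sample of adult mouse epidermis, freed from dermis with dispase. All 3 were precipitated with a custom Grhl3 antibody, and they belong to a series of 6 libraries that also holds 1 Grhl3 library from epidermis at day 4 of depilation and 2 input libraries. The labels give no strain, sex, genotype, adult age in weeks, imiquimod dose or duration, and they do not say whether animals were pooled or whether the E16.5 replicates came from separate animals. Age, tissue (whole skin against epidermis) and treatment therefore differ together and cannot be told apart. With 1 imiquimod library no test between the conditions could be run, and the values below describe lists of peaks. Peak lists hold no expression values, so the labelled tissues could not be checked against marker genes.

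Grhl3 belongs to the grainyhead-like family of transcription factors, which bind DNA through a conserved domain and act in surface epithelia. In the epidermis it is known for its part in the late steps of differentiation, when keratinocytes build the cornified envelope and seal the barrier before birth, and for a part in wound closure. Imiquimod is an agonist of Toll-like receptors that gives a psoriasis-like inflammation when applied to mouse skin. A ChIP-seq peak is a stretch of genome where tags, the mapped reads, pile up above background, and its summit is the position of the highest pile-up. The positions below are 1-based on build mm9. Regions are given by position, because gene annotation and genome sequence of that build were not used here.

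The embryonic lists were longer than the imiquimod list. After the filters, replicate 1 kept 11283 peaks with a median length of 442 bp, replicate 2 kept 9446 with 232 bp, and imiquimod kept 7897 with 276 bp. Peaks scoring above the imiquimod maximum of 249.45 were left out, 148 in replicate 1 and 32 in replicate 2. The depilation list was cut in the same way, which took out 32 of its 4749 autosomal peaks. A site described below as without a depilation peak may hold one of those. The highest score kept was 248.85 in replicate 1 and 245.59 in replicate 2, and the lowest left out was 249.63 and 249.69. A window on chromosome 2 that held 52 imiquimod peaks was left out as well. Library depth is unknown for all 3 lists. Intervals of shares are exact 95% binomial intervals (Clopper-Pearson), and they reflect counting error alone, as if neighbouring peaks were unrelated.

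More than 1 in 3 embryonic regions carried an imiquimod peak. The share was 35.6% (95% interval 34.0 to 37.2), against 17.9% of all replicate 1 peaks and 15.9% of all replicate 2 peaks. Most imiquimod peaks lay elsewhere. Of them, 16.7% (15.9 to 17.6) lay on an embryonic region, 12.8% (12.1 to 13.6) touched a peak of 1 replicate or a peak left out for its score, and 70.4% (69.4 to 71.4) touched no peak of either replicate. The overlap at a shared site was a median of 372 bp, and in 4 sites it was under 50 bp. The smallest overlap was 2 bp. Among regions without an imiquimod peak, 5 had one less than 50 bp away, the nearest at 5 bp. With imiquimod peaks of an FDR of 5% or less, the share of embryonic regions was 24.0%, and the share of imiquimod peaks on them was 24.0%. The FDR of this list did not fall steadily with score, so the cut did not keep the strongest peaks alone. In the highest decile of imiquimod score, 145.08 to 249.45, the FDR ran from 4% to 10%. In that decile 42.9% of the peaks lay on an embryonic region.

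The share rose with the width of the embryonic region, and it was highest among the best scoring regions. Regions of 128 to 506 bp carried an imiquimod peak in 11.3% (9.28 to 13.5) of 896 cases, and regions of 846 to 2207 bp in 58.5% (55.2 to 61.8) of 887. A wide region can be touched more easily by construction. With the same window for all, an imiquimod summit within 250 bp of the region's midpoint, the shares were 10.3% (8.36 to 12.4) in the narrowest quartile and 46.3% (43.0 to 49.7) in the widest. The score was read as a percentile, the rank of a peak's score within its own list from 0 to 100, and an embryonic region's percentile was the mean over the 2 replicates. In the lowest decile of this percentile 18.0% (14.1 to 22.4) of regions were shared, and in the highest 61.5% (56.2 to 66.6), and decile 5, at 26.2% (21.7 to 31.1), was below decile 4, at 32.3% (27.5 to 37.4). Width and percentile went together, since median width was 480 bp in the lowest decile and 928 bp in the highest. Within the narrowest quartile of width, regions above the median percentile were shared in 14.5% (9.93 to 20.2) and those below it in 10.3% (8.18 to 12.8), and these intervals overlap. In the widest quartile the corresponding shares were 60.3% (56.4 to 64.1) and 53.6% (47.0 to 60.1), whose intervals also overlap. In the quartile of 507 to 657 bp they were 34.0% (29.4 to 38.9) and 24.5% (20.7 to 28.5), which do not overlap, and in that of 658 to 845 bp they were 49.0% (44.6 to 53.3) and 36.6% (31.6 to 41.9), which do not overlap either.

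**Figure D1:**
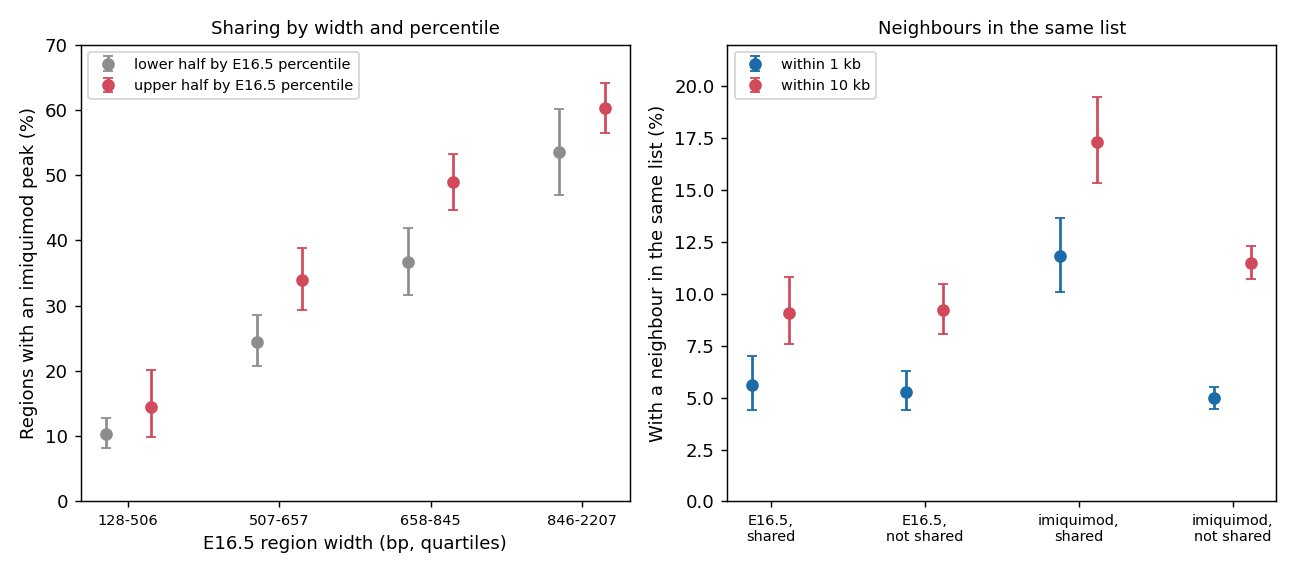
Left, share of embryonic regions with an imiquimod peak (percent) by quartile of region width (bp), for regions below and above the median E16.5 percentile, with exact 95% intervals; the share climbs from 10.3% to 60.3%. Right, share of regions or peaks with a neighbour of the same list within 1 or 10 kb, with exact 95% intervals; the shared imiquimod peaks stand highest, at 11.8% and 17.3%, and are at 3.10% and 9.46% when neighbours on the same embryonic region are left out (not plotted).

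The shared sites spread over every autosome. By chromosome, the share of embryonic regions with an imiquimod peak ran from 28.1% (22.2 to 34.5) on chromosome 7 to 44.3% (36.2 to 52.7) on chromosome 13. Seen from imiquimod, 24.3% of the peaks on chromosome 11 and 22.8% of those on chromosome 4 lay on an embryonic region, against 11.4% on chromosome 14 and 12.2% on chromosome 18. Chromosome 4 held 283 embryonic regions and chromosome 14 held 106.

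At shared sites the score percentiles of the 3 lists were high but loosely tied. The median percentile was 84.6 in replicate 1 (interquartile range 69.1 to 93.4), 74.5 in replicate 2 (51.6 to 88.7) and 78.6 after imiquimod (59.5 to 90.5). The shift, imiquimod minus the E16.5 mean, had a median of 1.07 points, with an interquartile range from -17.5 to 17.1. Its sign depended on the replicate, since imiquimod lay a median of 4.35 points below replicate 1 (-4.35) and 2.50 points above replicate 2. The 2 replicates themselves differed by a median of 6.49 points, replicate 1 being higher. No general rise or fall of the imiquimod percentile stood out from the difference between the embryonic replicates.

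**Figure D2:**
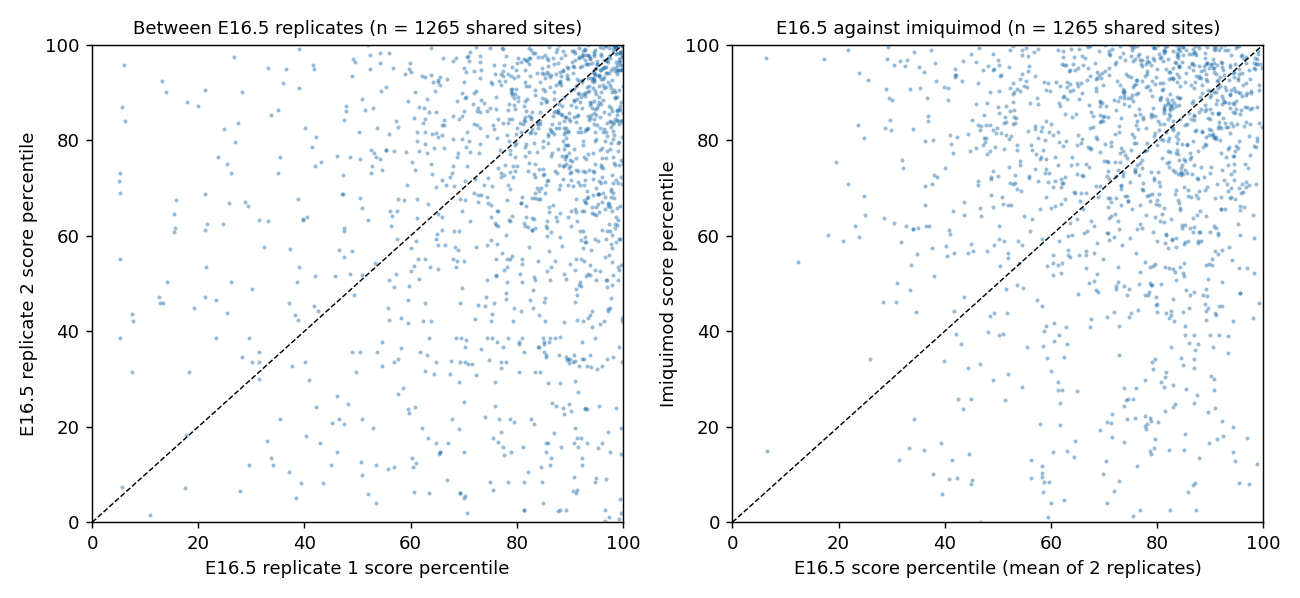
Score percentiles at the 1265 shared sites, 1 point a site, with the line of equal percentile dashed. Replicate 2 against replicate 1 (left) and imiquimod against the E16.5 mean (right) both fill the upper right corner, where medians lie between 74.5 and 84.6, with wide scatter.

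Single sites moved widely both between the embryonic replicates and between embryo and imiquimod. The absolute gap in percentile had a median of 16.7 points between the replicates, 16.4 between imiquimod and replicate 1, and 20.1 between imiquimod and replicate 2. Ranked among the shared sites alone, the median gaps were 24.0, 25.7 and 26.2 points in the same order, smallest between the replicates. Spearman's rho over the 1265 sites was 0.24 between the replicates, 0.12 between replicate 1 and imiquimod, and 0.10 between replicate 2 and imiquimod. These values are a description across sites, which are not independent, and each pair of values comes from 2 libraries whose depth is unknown.

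**Figure D3:**
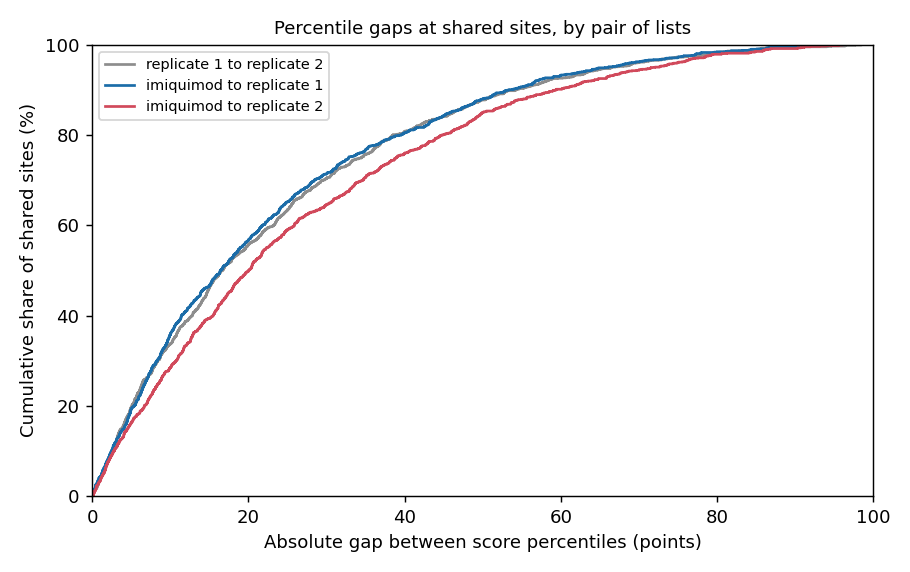
Cumulative share of the 1265 shared sites (percent) by absolute gap in score percentile (points), for each pair of lists. The curve between the replicates (median 16.7 points) runs along that between imiquimod and replicate 1 (16.4), and the curve for imiquimod and replicate 2 (20.1) lies to the right.

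Imiquimod had the highest of the 3 percentiles at 407 of the 1265 shared sites, 32.2% (29.6 to 34.8), and the lowest at 462, 36.5% (33.9 to 39.2). Replicate 1 was highest at 44.7% of sites and lowest at 21.3%, and replicate 2 was highest at 23.2% and lowest at 42.2%. The imiquimod shares thus fell between those of the 2 embryonic libraries. The shift was larger than the gap between the replicates at 613 sites (48.5%), upward at 236 and downward at 377. It was upward by over 50 points at 39 sites and downward by over 50 points at 81. No such count was made with an embryonic replicate in the place of imiquimod. The 48.5% therefore cannot be read as the part of sites that moved beyond replicate noise.

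Regions ranked high in both replicates were often shared, and their imiquimod ranks were spread widely. Both replicates had a percentile of 90 or more at 225 embryonic regions, of which 144 were shared, 64.0% (57.4 to 70.3). At these 144 sites imiquimod was at 90 or more in 46, 31.9% (24.4 to 40.2), and under 50 in 16, 11.1% (6.49 to 17.4). Both replicates were under 50 at 300 regions, of which 55 were shared, 18.3% (14.1 to 23.2). At those 55 sites imiquimod was at 90 or more in 14, 25.5% (14.7 to 39.0), an interval that overlaps that of the 144 highly ranked sites. Over all 1265 shared sites imiquimod was at 90 or more in 339, 26.8% (24.4 to 29.3). By quartile of the E16.5 percentile, the median imiquimod percentile went from 74.2 to 77.4, 77.8 and 82.9. The median shift fell from 25.6 to 7.78, -5.48 and -9.76 points over the same quartiles, and it contains the E16.5 percentile by construction.

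Some sites ranked near the top of all 3 lists. The first, on chromosome 1 at 39633576 to 39634538, scored 213.2 in replicate 1, 207.83 in replicate 2 and 216.89 after imiquimod, and carried no depilation peak. The second, on chromosome 1 at 10222543 to 10223487, scored 209.23, 208.85 and 207.71 in the same order, and 143.19 after depilation. Also on that chromosome, 95650860 to 95651829 scored 216.89, 168.87 and 198.46. On chromosome 3, 79090257 to 79091615 scored 245.93, 181.98 and 186.54. Across the 8 sites chosen this way every percentile was 96.0 or more, and the shift lay between -3.27 and 0.71 points. A depilation peak lay on 5 of them, and on 53.6% of all shared sites. The imiquimod peaks of the 8 sites held 74 to 98 tags at 11.2 to 15.4 tags per 100 bp.

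The 8 sites with the largest upward shift had percentiles of 5.22 to 50.9 in replicate 1 and 1.60 to 45.8 in replicate 2. After imiquimod these sites were at 92.6 to 99.5. On chromosome 12, the site at 51749640 to 51750443 scored 52.43 and 50.47 in the replicates and 196.85 after imiquimod, a shift of 90.9 points. Its imiquimod peak held 75 tags over 502 bp at a fold enrichment of 7.23. Next came 116779882 to 116780841 on chromosome 11, which scored 56.98, 51.38 and 194.4, and 130.45 after depilation. That on chromosome 16 at 94347039 to 94347666 scored 50.92, 59.46 and 222.2. A site at 31795139 to 31796073 on chromosome 17 had the highest fold enrichment of the 8, 12.31, with scores of 62.08, 53.79 and 194.06. Of the 8 sites 5 carried a depilation peak, and of all shared sites 53.6% did. At the 5 sites the depilation score ran from 58.65 to 201.7, the highest on chromosome 13 at 41701053 to 41701820. That last site scored 51.56 and 60.83 in the embryo and 159.67 after imiquimod. All 8 were picked for their shift, so its size is a description.

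One of these 8 sites was part of a divided embryonic peak. On chromosome 8, the region at 119256542 to 119256904 scored 52.77 and 61.74 in the embryo and 234.65 after imiquimod. A second embryonic region at 119256941 to 119257518, 36 bp away, scored 149.97 and 109.28, and the same imiquimod peak of 563 bp lay over both. The imiquimod summit was 370 bp from the midpoint of the first region, outside it, and at -136.5 bp from the midpoint of the second. For the second region the shift was 9.99 points, against 70.2 for the first. In all, 4 imiquimod peaks spanned 2 embryonic regions each.

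The 8 sites with the largest downward shift had percentiles of 72.4 to 99.8 in replicate 1 and 69.9 to 99.5 in replicate 2. After imiquimod these sites were near the lowest score of the list, at 52.71 to 55.16. First among them, 93431766 to 93433291 on chromosome 8 scored 243.46 and 137.76 in the replicates and 53.53 after imiquimod, a shift of -89.4 points. Its imiquimod summit lay at -445.5 bp from the midpoint of the embryonic region, on the side of lower coordinates. On chromosome 13, the site at 112476223 to 112477400 scored 157.65, 178.79 and 53.58, with the summit 9.5 bp from the midpoint. That at 135319951 to 135321116 on chromosome 1 scored 230.97, 174.83 and 54.51, and its fold enrichment of 3.94 was the lowest of the 8. Their imiquimod peaks held 24 to 48 tags, with an FDR between 8.47% and 9.73%. A depilation peak was present at 5 of the 8, with scores from 76.47 to 135.89, and at 53.6% of all shared sites. A high FDR was not particular to weak peaks, since it ran from 4.48% to 9.12% at the 8 sites of largest upward shift.

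Some embryonic regions with high scores in both replicates had no imiquimod peak within 10 kb. The region on chromosome 9 at 56008248 to 56008945 scored 219.79 and 220.68, and the nearest imiquimod peak was 256.5 kb away. The region on chromosome 4 at 151671271 to 151672138 scored 216.28 and 184.31 and carried a depilation peak of 93.97. The region on chromosome 1 at 91476560 to 91478362 was 1803 bp wide and scored 232.73 and 173.11, with a depilation peak of 59.47. The region on chromosome 17 at 36621438 to 36621957 scored 202.98 and 179.71 with no depilation peak. Of the 5 regions picked by this rule 3 carried a depilation peak, and of all embryonic regions without an imiquimod peak 27.7% did. The 5 were picked for their scores, so their count is a description. The imiquimod list stops at a score of 249.45, so an imiquimod peak above that score would be absent here as well.

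Depilation, the other injury in the series, was a readout that the choice of shared sites did not use. A depilation peak lay on 53.6% (50.8 to 56.4) of the shared sites and on 27.7% (25.8 to 29.6) of the embryonic regions without an imiquimod peak. The 32 depilation peaks left out for their score were not counted. The shared sites were also wider, with a median of 788 bp against 586 bp. By shift within the shared sites, the share with a depilation peak was 50.5% (45.6 to 55.3) in the lowest tertile of the shift, 55.8% (50.9 to 60.6) in the middle tertile and 54.5% (49.6 to 59.3) in the highest tertile, and the intervals overlap.

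Imiquimod peaks on embryonic regions held more tags per bp than the rest. Tag density, the authors' tag count divided by the peak's length, had a median of 12.0 tags per 100 bp (interquartile range 11.0 to 13.0) in the 1322 peaks on embryonic regions and 10.7 (10 to 11.7) in the 6575 others, a ratio of 1.11. Peaks that touched 1 replicate, or a peak left out for its score, had 11.8 (10.7 to 13.0), close to those on embryonic regions. Peaks in neither replicate had 10.6 (9.94 to 11.5). The groups overlapped widely. The share of imiquimod peaks on an embryonic region rose from 3.79% (2.57 to 5.37) in the lowest decile of tag density to 37.3% (34.0 to 40.8) in the highest.

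Length and score moved with tag density. Peaks on embryonic regions were longer, with a median of 372.5 bp against 257 bp, and held a median of 45 tags against 27. Within each of 5 length classes the peaks on embryonic regions still had the higher median density, by 0.72, 0.54, 0.66, 1.02 and 0.71 tags per 100 bp from the shortest class to the longest. In the shortest class, 73 to 202 bp, only 10 of the peaks lay on an embryonic region. The ratio was 1.07 when the length classes were weighted equally. Within score classes the difference was smaller, from 0.20 tags per 100 bp in the lowest quintile of score to 0.45 in the highest, and the ratio was 1.03. The score itself followed the tag count (Spearman's rho = 0.82) and the length (0.74) over the 7897 peaks, which share 1 library.

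**Figure D4:**
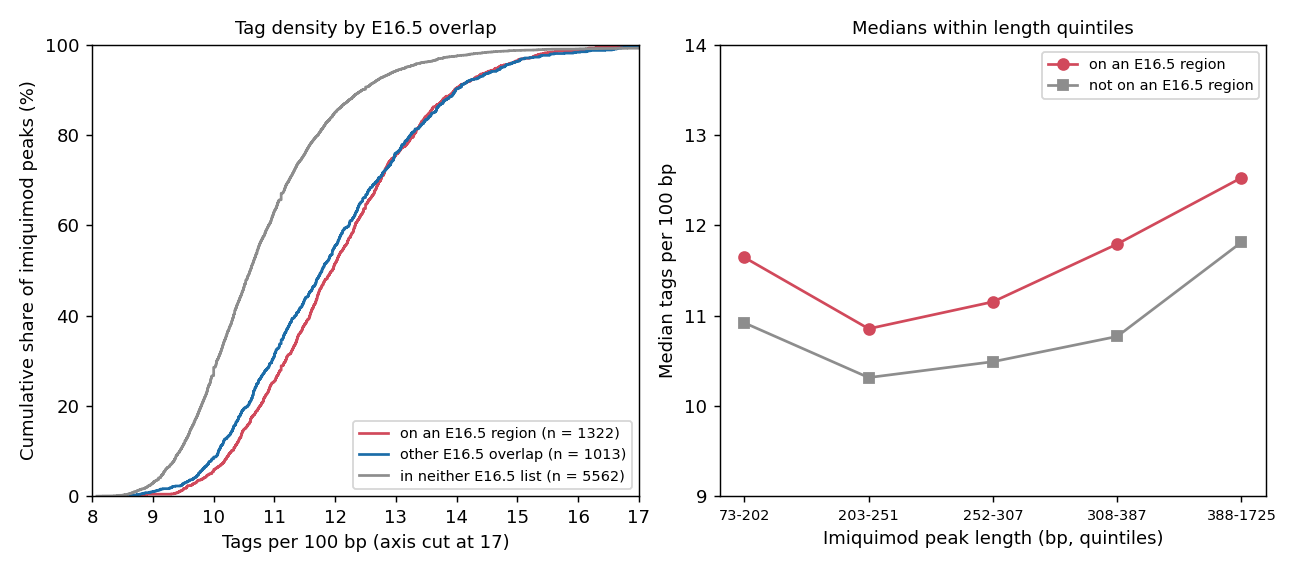
Left, cumulative share of imiquimod peaks (percent) by tag density (tags per 100 bp) for peaks on an embryonic region (1322), peaks with other E16.5 overlap (1013) and peaks in neither list (5562); the last curve lies lowest in density. Right, median tag density within length quintiles (axis from 9 to 14), where peaks on embryonic regions are higher by 0.54 to 1.02 tags per 100 bp.

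Fold enrichment over the caller's background went the other way. Its median was 6.47 (interquartile range 5.55 to 7.51) for peaks on embryonic regions and 6.71 (5.89 to 7.73) for the others, a ratio of 0.964. In the lowest quintile of score the medians were 5.42 and 6.57, at median lengths of 264.5 bp and 204 bp. In the highest quintile they were 7.23 and 7.48. Tag density and fold enrichment therefore order the same peaks differently, and no source used here gives how the caller set its background. Ranked by fold enrichment in place of score, imiquimod was above both replicates at 12.9% of shared sites and below both at 64.6%, and the median shift was -28.5 points.

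The densest shared sites were spread over 5 chromosomes. The site on chromosome 2 at 181022202 to 181022912 had the highest tag density, 20.5 tags per 100 bp from 80 tags over 391 bp, with a fold enrichment of 12.96. It scored 206.2 and 76.09 in the replicates, 246.9 after imiquimod and 126.84 after depilation. On chromosome 4, the site at 28740756 to 28741384 had 19.3 tags per 100 bp from 43 tags over 223 bp, and scores of 166.55, 65.43 and 140.13. On chromosome 9, the site at 121766114 to 121767219 had 18.3, and scores of 131.85, 93.65 and 180.66. Of the 5 densest sites 4 carried a depilation peak, and of all shared sites 53.6% did. The 5 were picked for their density, so their count is a description.

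Denser peaks still occurred among those found in neither replicate. On chromosome 9, the peaks at 3000597 to 3000745 and at 3019772 to 3019878 had 65.8 and 57.9 tags per 100 bp at fold enrichments of 3.03 and 4.73. The peak on chromosome 12 at 75904766 to 75905589 held 456 tags, 55.3 per 100 bp, at a fold enrichment of 4.39. A depilation peak lay on that at 3000597 and on that of chromosome 12, and none on that at 3019772. Each of these imiquimod peaks exceeded the highest density of any peak on an embryonic region, 20.5, at a fold enrichment below the list's median of 6.66. The 5 best scoring peaks in neither replicate had 11.8 to 14.9 tags per 100 bp and fold enrichments from 6.89 to 15.51. The first, 16786275 to 16787002 of chromosome 6, had a score of 249.45 with 11.8 tags per 100 bp at a fold enrichment of 10.01. The second, 63936189 to 63936687 of chromosome 2, had 247.61 with 14.4 tags per 100 bp at 8.96.

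Imiquimod summits lay near the middle of the embryonic regions. The summit fell inside the region at 1248 of 1265 shared sites, 98.7% (97.9 to 99.2), and between 0.25 and 0.75 of the region's length at 1040, 82.2% (80.0 to 84.3). Shared sites were chosen for overlap, and the imiquimod peak lay wholly inside the region at 85.5% (83.5 to 87.4). A summit inside the region is therefore largely given by construction. How central summits would be from overlap alone was not computed. On a scale from 0 at the region's start to 1 at its end, the median position was 0.501 (interquartile range 0.372 to 0.619). The signed distance from the midpoint had a median of 1 bp, and 49.5% (46.7 to 52.3) of summits lay on the side of lower coordinates. Summits lay within 100 bp of the midpoint at 52.4% (49.6 to 55.2) of sites and over 300 bp away at 95 sites.

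The imiquimod summit was about as far from the embryonic midpoint as the replicates were from each other. The absolute distance had a median of 95 bp (42 to 171) for the summit, against 82 bp (33 to 161) for the midpoint of the replicate 2 peak. Both peaks were chosen for overlap with the region, which limits both distances by construction. Taken from the replicate 2 midpoint, the imiquimod summit was a median of 89.5 bp away, and it lay inside the replicate 2 peak at 81.7% (79.5 to 83.8) of sites. The embryonic lists give no summits, so midpoints stand for them. With midpoints on both sides the imiquimod distance was 80.5 bp. By rank after imiquimod, the summit distance was 98 bp for sites at percentile 90 or more and 88 bp for those under 50. It rose with the width of the region, from 52.5 bp in the narrowest quartile of shared sites to 171.25 bp in the widest, or from 0.100 to 0.155 of the region's length.

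**Figure D5:**
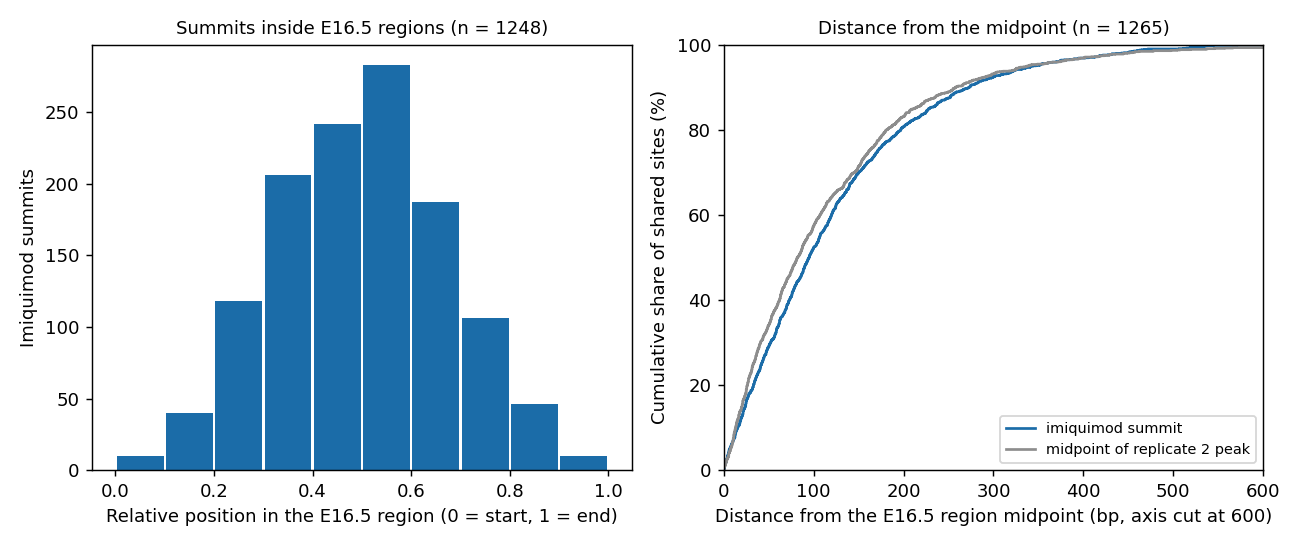
Left, number of imiquimod summits by relative position inside the embryonic region, in 10 bins of its length; the 2 central bins hold 242 and 283 summits and the outer bins 10 each. Right, cumulative share of shared sites (percent) by distance from the embryonic midpoint (bp), for the imiquimod summit (median 95 bp) and the replicate 2 midpoint (82 bp).

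A minority of shared sites held more than 1 imiquimod peak. There were 58 such sites, 4.58% (3.50 to 5.89), of which 55 held 2 peaks and 3 held 3. In these the best imiquimod summit lay a median of 252.75 bp from the midpoint, against 92 bp where there was 1 imiquimod peak.

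Shared and unshared embryonic regions had close neighbours about as often. A neighbouring embryonic region lay within 10 kb of 9.09% (7.56 to 10.8) of shared sites and of 9.21% (8.06 to 10.5) of the other embryonic regions, and the intervals overlap. The median gap to the nearest embryonic region was 124.8 kb and 110.7 kb. Within 50 kb the shares were 25.0% (22.6 to 27.5) and 28.5% (26.7 to 30.4). Of 170 adjacent pairs of embryonic regions within 10 kb, both carried an imiquimod peak in 25, 1 of them did in 70 and neither did in 75. Over all embryonic regions the share with an imiquimod peak was 35.6%. The counts that unrelated neighbours would give at this share were not computed, so the pairs do not show whether neighbours share their state. With replicate 2 peaks alone as the embryonic set the 10 kb shares were 26.9% for shared and 16.8% for unshared peaks, and with replicate 1 alone 21.1% and 18.2%.

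In the imiquimod list, the comparison of neighbours turned on peaks that lay on the same embryonic region. Another imiquimod peak lay within 1 kb of 11.8% (10.1 to 13.7) of the peaks on embryonic regions and of 4.97% (4.46 to 5.53) of the others, and within 10 kb of 17.3% (15.3 to 19.5) and 11.5% (10.7 to 12.3). Of the 156 peaks on embryonic regions with a neighbour within 1 kb, 119 had that neighbour on the same region, 16 on another embryonic region and 21 off any. Neighbours on the same region are both counted as on an embryonic region by definition. With neighbours on the same region left out, the share of peaks on embryonic regions was 3.10% (2.23 to 4.18) within 1 kb. Within 10 kb it was 9.46% (7.93 to 11.2). The others kept all of their neighbours, however close, so these 2 values cannot be set against theirs. Within 50 kb the shares were 36.8% (34.2 to 39.5) and 32.7% (31.6 to 33.9) with all neighbours, and the first was 30.5% (28.0 to 33.0) with those on the same region left out.

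The distance to the other list was taken for unshared embryonic regions and unshared imiquimod peaks, with embryonic regions counted only where both replicates held them. It depends on how many regions that list holds, 7897 imiquimod peaks against 3556 embryonic regions. The shares that unrelated lists would give were not computed. Of the 6575 imiquimod peaks off the embryonic regions, 1013 did touch a peak of 1 replicate or a peak left out for its score. Of the 2291 embryonic regions with no imiquimod peak, 2.88% (2.23 to 3.65) had one within 1 kb and 7.46% (6.42 to 8.62) within 10 kb, at a median gap of 97.6 kb. Of the 6575 imiquimod peaks, 0.745% (0.552 to 0.984) had an embryonic region within 1 kb and 2.77% (2.38 to 3.19) within 10 kb, at a median gap of 377.2 kb. Of these, the 5562 in neither replicate, a class that leaves out any peak touching a replicate, had an embryonic region within 1 kb in 0.216% (0.112 to 0.377) and within 10 kb in 1.74% (1.42 to 2.12), at a median gap of 454.0 kb.

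Among the imiquimod peaks kept, the longest runs lay off the embryonic regions. The window on chromosome 2, left out beforehand, held 52 imiquimod peaks over 149.7 kb and 1 peak of each E16.5 replicate. Chained at gaps of 10 kb or less, 13 peaks ran over 24.4 kb on chromosome 7, from 38960832 to 38985242, and 9 peaks over 37.1 kb on chromosome 9, from 3000597 to 3037666. None of these 22 peaks touched a peak of either replicate. The run on chromosome 9 had a median of 44.6 tags per 100 bp at a fold enrichment of 4.43, and that on chromosome 7 had 12.7 at 6.78. Of the 3 runs of 4 peaks, 1 on chromosome 15, from 100883007 to 100894164, held no shared site, and 2 of its 4 peaks touched neither replicate. The others lay on chromosome 11, from 102298836 to 102309030, where 3 of the 4 peaks lay on an embryonic region, and on chromosome 13, from 31898179 to 31903641, where 2 did. Among single peaks 15.8% lay on an embryonic region, and among peaks in runs of 2 to 4 it was 23.8%, where peaks on the same embryonic region count as a run.

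Shared sites themselves formed no long run. Chained at 10 kb, 1209 sites stood alone and the rest formed 28 pairs. In the pairs named below, the regions lay 0.213 kb (chromosome 13), 0.002 kb (chromosome 15) and 0.045 kb (chromosome 14) apart. Whether such a pair is a single divided embryonic peak was not tested. On chromosome 13, the pair at 31898741 to 31899352 and 31899566 to 31900702 scored 89.02 and 142.53 in replicate 1, 65.15 and 50.64 in replicate 2, and 157.49 and 134.34 after imiquimod. On chromosome 15, the pair at 85501001 to 85501680 and 85501683 to 85502580 scored 131.21 and 96.93, 127.26 and 86.58, and 179.59 and 104.9 in the same order. On chromosome 14, the pair at 115439597 to 115440468 and 115440514 to 115441154 scored 203.36 and 93.21 in replicate 1, 65.9 and 70.91 in replicate 2, and 98.07 and 178.61 after imiquimod, so the embryonic replicates differed in their order.

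The embryonic peaks left out for their score carried an imiquimod peak more often in replicate 1 than in replicate 2. Of the 148 such peaks of replicate 1, 96 did, 64.9% (56.6 to 72.5), at a median imiquimod percentile of 84.3. Among the replicate 1 peaks kept the share was 17.9%. Of the 32 of replicate 2, 7 did, 21.9% (9.28 to 40.0), an interval that holds the 15.9% of the replicate 2 peaks kept. The FDR of the imiquimod list was 10% at its lowest score, 52.35, fell to 2.9% and was 10% again at its highest score. No imiquimod peak above that score or that FDR is in the list, so the percentiles of the strongest sites after imiquimod rest on a list that stops there.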

How the data were processed

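The submitters' processing notes name mm9, Bowtie 0.12.7 and also bedtools 2.11.2. The caller's settings and its use of input are not given. The deposited E16.5 and depilation lists give each peak a score, 50 or more in every row, under names starting with MACS. The deposited imiquimod list gives, per the file headers, the authors' tag count, summit, fold enrichment (a ratio) and FDR in percent; its score column has lost its header and was read as the same kind of score. Each list belongs to 1 library, per the labels.

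BED starts were raised by 1 bp. Sex chromosomes, the window on chromosome 2 and peaks above the imiquimod maximum were left out before the sets were built. Touching regions were merged, and the best peak counted where a region held several. Percentiles are mid-ranks within the filtered list. Whether an imiquimod peak touched neither replicate was judged against all autosomal embryonic peaks. Members, lists and alternatives were chosen with earlier results of these data known. Named regions were picked by largest upward or downward shift outside both replicates (8 each), highest lowest percentile (8), tag density (5, and 5 with at least 50 tags in neither replicate), score in neither replicate (5), embryonic percentile with no imiquimod peak within 10 kb (5) and runs of shared sites (5); the longest imiquimod runs were chosen after their values were seen. Functions were tested on simulated data, and the 1265 shared sites were checked with bedtools 2.31.1. Calculations ran in Python 3.11.15 with scipy 1.17.1, pandas 2.3.3 and numpy 2.4.6. The planned gene and motif parts were not run, since the reference tables are on another build.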

Additional observations from a re-analysis of the deposited data

Results flagged for a closer look

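The window left out on chromosome 2 held 52 imiquimod peaks between 77711665 and 77861350, a stretch of 149.7 kb. Each E16.5 replicate held 1 peak there, at 77783894 to 77784154 with a score of 100.3 in replicate 1 and at 77783918 to 77784124 with 58.99 in replicate 2, and the depilation list held 0. The imiquimod peaks had a median of 15.4 tags per 100 bp and 74.5 tags, with scores from 61.34 to 241.73. Input signal there was not analysed here.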

How the results depend on the processing

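Of 73 alternative values, 33 stayed within the interval of the value reported and the others did not. Those intervals were binomial for shares and came from ranked values over sites or peaks for medians and their ratio. The ratio of shared to unshared peaks turned, from 1.11 for tag density to 0.964 for fold enrichment. That ratio was 1.67 for tags per peak, 1.13 against peaks in neither replicate, 1.06 at an FDR of 5% or less, 1.07 within length quintiles and, added after seeing the data, 1.03 within score quintiles; without 1 replicate it was 1.12 in both cases. The cut at an FDR of 5% or less also removed high-scoring imiquimod peaks. Among embryonic regions the shared part was 24.0% at that FDR, and 15.9% to 17.9% without 1 replicate. The share of imiquimod peaks on them was 24.0% at that FDR, 19.4% with the better scoring 50% of each list, 18.1% with no peaks left out, and 18.7% to 26.5% without 1 replicate. The median shift was 1.07 points. Its interval, -0.97 to 3.21, came from ranked values over sites taken as unrelated, and holds no error between libraries. The shift changed sign to -1.83 with imiquimod ranked by tags per bp, to -28.5 by fold enrichment and to -4.35 without replicate 2. Without replicate 1 it was 2.50. Imiquimod lay above both replicates at 35.8% of sites ranked among shared sites alone, at 28.4% by tags per bp and 12.9% by fold enrichment, and above the remaining replicate at 40.7% to 54.9%. It lay below both at 40.8% by tags per bp and 64.6% by fold enrichment, and below the remaining replicate at 45.1% to 59.3%. The summit was 80.5 bp from the midpoint with imiquimod midpoints and 89.5 bp without replicate 1. Shares with a neighbour at 5 kb and 50 kb were 7.35% and 25.0% (shared E16.5), 6.59% and 28.5% (unshared E16.5), 14.4% and 36.8% (shared imiquimod) and 8.47% and 32.7% (unshared imiquimod). With neighbours on the same E16.5 region left out, added after seeing the data, the shared imiquimod share was 9.46% at 10 kb, where it had been 17.3%. Unshared peaks lost no neighbour in that setting, so the 9.46% cannot be set against their 11.5%. Without 1 replicate the 10 kb shares were 21.1% to 26.9%, 16.8% to 18.2%, 17.1% to 17.3% and 10.8% to 11.4% in the same order. The cause was not tested in any case. No paired analysis was possible because the imiquimod group has 1 library and no result comes from a test. Depth is unknown and the imiquimod list stops at a score of 249.45, so an absent peak need not mean absent binding.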
